A study of Mus musculus with 30 samples.

Results

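The comparison set Podofilox directly against Cardamonin in cultured mouse fibroblasts. The pair was chosen by an earlier result in these same data: both compounds raised targets of the transcription factor ATF4, while their chemistry differs. Podofilox (podophyllotoxin) is a plant lignan that binds tubulin and blocks microtubule assembly, and Cardamonin is a plant chalcone, an electrophile that reacts with thiol groups. Of 30 libraries in the series, 6 entered the comparison, 3 for each compound. Of 29861 genes in the deposited table, 12596 reached at least 1 TPM (transcripts per 1000000 transcripts) in at least 3 of those 6 libraries and are the genes described here. The Podofilox, Cardamonin and DMSO libraries came from CCG-HTA-1, a primary tail fibroblast line of UMHet3 mice, a genetically mixed stock. The line was at passage 4, derived from animals aged 5 to 8 weeks. The cells grew in high-glucose DMEM with 10% fetal calf serum and no pyruvate, at ambient oxygen with 10% CO2 and 37 °C. The groups described here were Podofilox, Cardamonin and, as the solvent reference, 6 DMSO libraries, and RNA was taken 48 hours after the compounds were added. The series carries no genotype other than this 1 line. The labels give no dose, so the values compare 2 treatments as applied and not 2 compounds at matched dose. The replicates are libraries of 1 line, so p-values measure only the spread between libraries, which may be technical. That spread was pooled over all 30 libraries of the series in 9 groups, most of them outside the pair. Dihydrorotenone replicate 1, which entered the pooled spread, is labelled with an older donor age. Library numbers ran consecutively within each group, so compound and library batch cannot be told apart.

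ATF4 is the transcription factor at the end of the integrated stress response. When kinases that sense amino acid shortage, unfolded protein, heme shortage or double-stranded RNA phosphorylate the initiation factor eIF2, general translation falls while ATF4 protein is made, and ATF4 then raises genes of amino acid synthesis, amino acid uptake and tRNA charging. NRF2, encoded by Nfe2l2, is held at low level by KEAP1, whose reactive cysteines are modified by electrophiles. NRF2 that escapes degradation binds antioxidant response elements together with small MAF proteins and raises genes of glutathione synthesis, thioredoxin reduction, quinone reduction, heme breakdown and NADPH supply. Tubulin messages are themselves regulated: free tubulin dimers lead to decay of the tubulin mRNAs being translated, a feedback called tubulin autoregulation.

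The 6 libraries were comparable in their totals. Their listed TPM summed to between 927024 and 934626, of which the top 20 genes of each held 17.3% to 19.2%, and 12229 to 12603 genes per library were at 1 TPM or more. Because TPM does not carry sequencing depth, depth is unknown and no counting interval is given. All 10 fibroblast markers checked reached 1 TPM (Vim led), with summed levels of 8021 to 8212 TPM in Podofilox, 3829 to 4524 in Cardamonin and 9398 to 10768 in DMSO libraries. The markers Col1a1, Col1a2, Dcn and Lum are also on the matrix list described below. Keratinocyte markers summed to 1.39 to 1.84 TPM in Podofilox and 1.71 to 1.81 in Cardamonin, with Krt5 at 0, and skeletal muscle markers stayed under 1 TPM. The 7 leukocyte markers summed to 87.9 to 101 TPM in Podofilox, 110.0 to 129 in Cardamonin and 155 to 211 in DMSO libraries, led by Lyz2, with Ptprc, Itgam and Mrc1 under 1 TPM in the 6 libraries. The 5 endothelial markers summed to 5.94 to 6.64 TPM in Podofilox and 1.09 to 1.18 in Cardamonin, with Tek the only marker that reached 1 TPM and Emcn at 0. Chondrocyte sums of 188 to 235 and 164 to 195 TPM came mainly from Comp, adipocyte sums of 25.6 to 30.2 and 24.6 to 32.2 TPM from Fabp4, with Adipoq, Plin1, Cidec and Lep at 0, and Schwann and melanocyte markers summed to 43.7 to 54.997 and 36.9 to 39.7 TPM. In bulk RNA, fewer cells of a type and less RNA per cell cannot be told apart, and the part of other cell types in the results was not tested.

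Differences below are Podofilox minus Cardamonin in mean log2(TPM + 1), so a positive value is higher in Podofilox. They are given ± SE with the two-sided limma p adjusted over all 12596 genes, and a gene is called at an adjusted p below 0.05. The scale understates differences of genes with low TPM. At that threshold 7680 genes were called, 61% of those tested: 3782 (30%) were higher in Podofilox and 3898 (30.9%) higher in Cardamonin. The 3 Podofilox and 3 Cardamonin libraries did not overlap for 8349 genes (66.3%). A difference of at least 2-fold together with the call was seen for 1293 genes (10.3%), of which 829 were higher in Podofilox and 464 in Cardamonin. At 8-fold or more, 35 genes were higher in Podofilox and 21 in Cardamonin. Over all genes tested the median difference was -0.01. These shares are the background against which each group of genes is read. A list in which about 61% of members are called matches the whole table in that share only. The direction of its calls is read against the 30% and 30.9%. Passing the filter bore on some calls, since 226 genes reached 1 TPM in all 3 Podofilox libraries and in no Cardamonin library, and 98 the reverse, so these had to differ. Among the 11558 genes at 1 TPM in all 6 libraries, 7099 (61.4%) were called. The genes nearest to the filter were Ttc25 (the third highest library held 1.0010 TPM) and Rab26 (1.0018 TPM) on the inside and Cd200r4 (0.9997 TPM) and Ccdc106 (0.9961 TPM) on the outside.

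Gene lists separated along the difference between the compounds. Lists of inflammation, matrix, interferon response, YAP and TGF-beta response, matrix proteases and contractile genes had medians between 0.79 and 1.94, and the 3 NRF2 target lists had medians between -2.92 and -1.61. Heat shock (-0.87), amino acid transport (-0.73), p53 target (-0.70) and proteasome (-0.66) lists lay on the Cardamonin side by smaller amounts. Mitochondrially encoded genes (-0.02) and nuclear respiratory chain genes (0.03) lay at the median of all genes. The plot of list members shows that most lists with large medians also held members on the opposite side, which are named in each account.

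**Figure D1:**
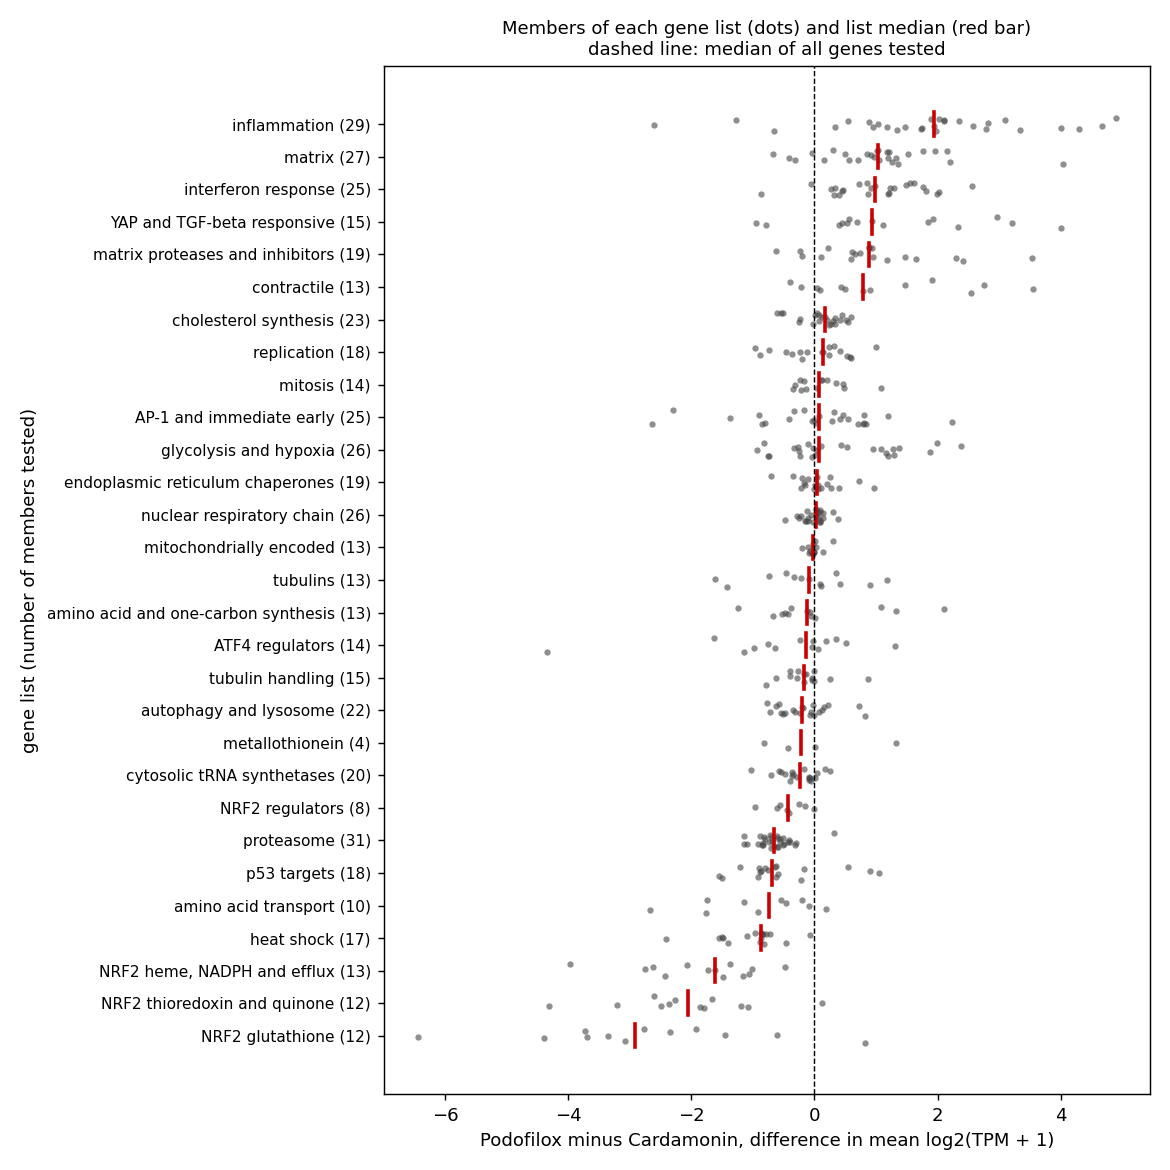
Difference in mean log2(TPM + 1), Podofilox minus Cardamonin, for the tested members of 29 gene lists. Each dot is a gene, the red bar is the list's median and the dashed line the median of all 12596 genes tested (-0.01). Inflammation has the highest median (1.94) and NRF2 glutathione the lowest (-2.92).

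The NRF2 targets stood far higher in Cardamonin. Of 39 genes on the 3 target lists, 37 were tested, 35 were called higher in Cardamonin and 2, Gstm2 and Ugdh, higher in Podofilox, against 30.9% and 30% of all genes, and the median difference was -2.06 against -0.01 over all genes. Relative to DMSO the medians of the 37 were 0.44 for Podofilox and 2.66 for Cardamonin, 2 values that share the same 6 DMSO libraries. The members not tested were Gpx2, listed at 0 in all 6 libraries, and Abcc2.

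Glutathione genes made up the list with the largest difference: 11 of 12 tested members were called higher in Cardamonin and 1 higher in Podofilox (median -2.92). Gclc and Gclm encode the catalytic and modifier subunits of glutamate-cysteine ligase, which makes the first bond of glutathione. Gclc (ENSMUSG00000032350, chr9:77754535-77794485) read 83.4, 74.6 and 81.4 TPM in the 3 Podofilox libraries, 784, 810.2 and 875 TPM in the 3 Cardamonin libraries and from 46.3 to 64.5 (median 50.6) in the 6 DMSO libraries. All Podofilox libraries lay above DMSO and all Cardamonin libraries far above both (-3.35 ± 0.08, limma adjusted p = 5.2e-21). Gclm read 232, 224 and 238 TPM in Podofilox, 1609.9, 1519 and 1622 in Cardamonin and from 92.3 to 122 (median 117) in DMSO, with the same order of groups and no overlap (-2.77 ± 0.08, limma adjusted p = 2.9e-19). Gss, glutathione synthetase, averaged 34.5 ± 1.06 TPM (SD, n = 3) in Podofilox and 299.6 ± 34.3 in Cardamonin (-3.07 ± 0.08, limma adjusted p = 4.1e-20), with Podofilox overlapping the DMSO range. Gsr, which regenerates reduced glutathione, averaged 44.9 ± 2.03 and 174 ± 11.3 TPM (-1.93 ± 0.08, limma adjusted p = 1.1e-16).

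The transferases that couple glutathione to electrophiles held the extremes. Gsta2 read 1.86, 1.22 and 0.552 TPM in Podofilox and 174, 150.4 and 238 TPM in Cardamonin, with DMSO from 0.249 to 1.13 (median 0.433) (-6.43 ± 0.29, limma adjusted p = 4.7e-16). It had the largest difference of any gene tested that met the naming rule, and Podofilox overlapped DMSO. Gsta1 read 3.37, 3.93 and 5.18 TPM in Podofilox and 108, 93.3 and 119 TPM in Cardamonin (-4.39 ± 0.25, limma adjusted p = 6.3e-14). The 2 genes share sequence, with 92.9% of the 31-base words of Gsta1 and 60.7% of those of Gsta2 found in other genes, so the split of reads between them is uncertain. Gsta3, with 2.75% shared, read 25.2, 21.4 and 25.1 TPM in Podofilox, 317, 312 and 353 in Cardamonin and from 13.3 to 20.6 (median 15.9) in DMSO (-3.72 ± 0.11, limma adjusted p = 3.0e-19). Gsta4, which acts on the lipid peroxidation product 4-hydroxynonenal, read 262, 268 and 292 TPM in Podofilox and 3428, 3396 and 3877 in Cardamonin against 121 to 182 (median 144) in DMSO (-3.70 ± 0.09, limma adjusted p = 5.2e-21). For Gsta1, Gsta3 and Gsta4 both compounds lay above the DMSO range and the compounds did not overlap. Gstm2 went the other way, at 147, 152 and 154 TPM in Podofilox and 88.03, 92.5 and 74.4 TPM in Cardamonin, both below DMSO (172 to 190.4, median 182), and was the only member of this list called higher in Podofilox (0.82 ± 0.06, limma adjusted p = 1.5e-11).

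Among thioredoxin, peroxiredoxin and quinone or carbonyl reducing enzymes, 11 of 12 were called higher in Cardamonin (median -2.06). Aldh3a1, an aldehyde dehydrogenase, read 23.5, 23.8 and 29.5 TPM in Podofilox and 539.6, 455 and 593 TPM in Cardamonin, while DMSO ran from 29.8 to 52.2 (median 34.4). Podofilox lay below the DMSO range and Cardamonin above it (-4.32 ± 0.16, limma adjusted p = 2.1e-17). Nqo1, the quinone reductase used as a standard NRF2 readout, read 87.4, 93.8 and 99.2 TPM in Podofilox and 848, 815 and 959 TPM in Cardamonin, and DMSO ran from 79.4 to 108 (median 88.9). Podofilox libraries lay within the DMSO range for Nqo1 and Cardamonin libraries were all above it (-3.21 ± 0.08, limma adjusted p = 8.1e-21). Srxn1, which repairs overoxidised peroxiredoxin, averaged 260.3 ± 4.93 TPM in Podofilox, 1466 ± 45.5 in Cardamonin and 88.7 ± 10.8 (SD, n = 6) in DMSO (-2.49 ± 0.08, limma adjusted p = 4.7e-19). Blvrb, biliverdin reductase B, differed by -2.60 ± 0.09, limma adjusted p = 3.8e-18. Prdx1, an abundant peroxiredoxin, reached 17015 ± 337 TPM in Cardamonin against 3313 ± 186 in Podofilox (-2.36 ± 0.10, limma adjusted p = 7.8e-17). Txnrd1, thioredoxin reductase, averaged 129.8 ± 3.93 and 416 ± 26.96 TPM in the 2 compounds (-1.67 ± 0.09, limma adjusted p = 7.7e-15). Both compounds lay above DMSO for Srxn1, Prdx1 and Txnrd1. Ugdh, which makes UDP-glucuronate, was the exception and differed by little, 140.3 ± 2.41 TPM in Podofilox and 128 ± 7.34 in Cardamonin (0.13 ± 0.05, limma adjusted p = 0.026). The call for Ugdh was lost with the 6 libraries fitted alone and without Podofilox replicate 1. It was also lost without Cardamonin replicate 1 and without Cardamonin replicate 3.

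Heme, iron, NADPH and efflux genes were called higher in Cardamonin in 13 of 13 cases (median -1.61). Hmox1 (ENSMUSG00000005413, chr8:75093621-75100589), heme oxygenase 1, read 772, 737 and 793 TPM in Podofilox, 11880.5, 11704 and 12634 TPM in Cardamonin and from 434 to 617 (median 524) in DMSO. The 3 groups did not overlap, and the compounds differed 15.7-fold on the log2(TPM + 1) scale (-3.97 ± 0.10, limma adjusted p = 5.2e-21). The ferritin chains that store the released iron differed less: Ftl1 by -1.61 ± 0.07, limma adjusted p = 1.5e-16, and Fth1 by -0.48 ± 0.05, limma adjusted p = 1.2e-08. Fth1 averaged 13367 ± 285 TPM in Podofilox, below the DMSO range, and 18719.5 ± 1270.1 in Cardamonin, which overlapped DMSO. The pentose phosphate enzymes supply NADPH. G6pdx, the first of them, averaged 40.7 ± 1.94 TPM in Podofilox and 223 ± 19.02 in Cardamonin (-2.43 ± 0.07, limma adjusted p = 6.7e-20), and Podofilox overlapped DMSO (41.5 to 50.2, median 44.03). Taldo1 (-1.72 ± 0.07), Pgd (-1.37 ± 0.05), Tkt (-1.16 ± 0.06) and the malic enzyme Me1 (-1.01 ± 0.06) were called in the same direction. The glutathione-conjugate pumps Abcc4 (-2.75 ± 0.08, limma adjusted p = 3.5e-19) and Abcc1 (-2.62 ± 0.10, limma adjusted p = 8.4e-18) were also higher in Cardamonin. Sqstm1, an autophagy receptor that binds KEAP1, averaged 1297 ± 34.6 and 3639 ± 164 TPM (-1.49 ± 0.06, limma adjusted p = 4.1e-17).

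The regulators of the pathway differed far less than its targets. Of 8 regulators, limma called 7 higher in Cardamonin and none in Podofilox, where 0 had an unadjusted p under 0.05 (median -0.42). Nfe2l2 itself read 156, 151 and 165 TPM in Podofilox, 184, 189 and 188 in Cardamonin and from 132 to 149.7 (median 139) in DMSO (-0.25 ± 0.04, limma adjusted p = 2.9e-05). Both compounds lay above DMSO for Nfe2l2 and the compounds did not overlap. The small MAF partners Mafk (-0.96 ± 0.07, limma adjusted p = 3.4e-12) and Mafg (-0.60 ± 0.10, limma adjusted p = 1.1e-05) had larger differences, and Keap1 and Cul3, parts of the ligase that degrades NRF2, differed by -0.41 ± 0.07 and -0.44 ± 0.07. Bach1, a repressor that competes for the same elements, averaged 44.1 ± 0.795 TPM in Podofilox and 44.1 ± 1.70 in Cardamonin, with an interval of -0.14 to 0.14. The plot of NRF2 targets by library shows the separation gene by gene.

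**Figure D2:**
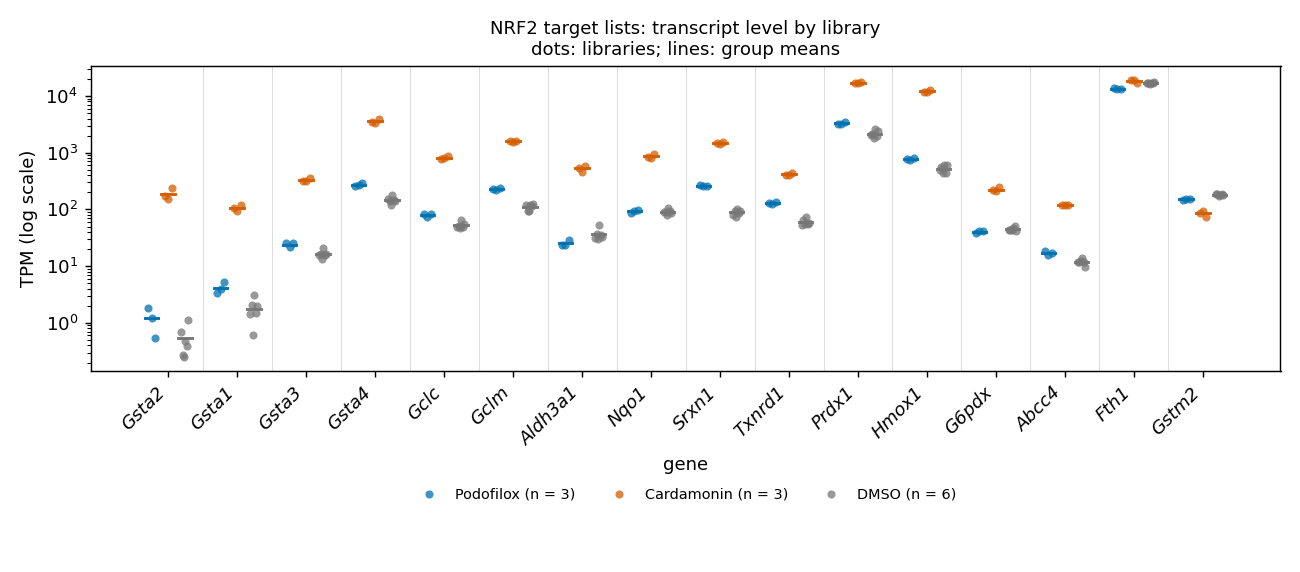
TPM on a log axis for 16 members of the NRF2 target lists, with 1 dot per library and a line at each group mean (Podofilox n = 3, Cardamonin n = 3, DMSO n = 6). Cardamonin libraries lie above the other libraries for every gene shown except Fth1, where they overlap DMSO, and Gstm2, where they are the lowest.

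Short promoter stretches show where the antioxidant response element core lies in 4 of the NRF2 targets with the largest differences among those whose promoter holds it. The motif searched was TGACNNNGC on either strand, within 250 bases upstream of the start, in RefSeq promoters of the GRCm38.p6 build. The stretches are Gsta3 (chr1:21240439-21240497, plus strand), Gclm (chr3:122245398-122245456, plus strand), Abcc4 (chr14:118706220-118706269, minus strand) and G6pdx (chrX:74428904-74428962, minus strand), written 5′ to 3′ along the gene's strand with the match in capitals. Where the capitals read GC first and GTCA last, the match is on the opposite strand.
Gsta3: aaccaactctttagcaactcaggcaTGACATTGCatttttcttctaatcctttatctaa
Gclm: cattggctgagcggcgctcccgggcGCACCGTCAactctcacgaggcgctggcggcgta
Abcc4: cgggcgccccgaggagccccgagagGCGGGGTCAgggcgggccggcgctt
G6pdx: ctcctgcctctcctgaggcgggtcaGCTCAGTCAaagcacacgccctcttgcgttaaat
The first base of the match, read 5′ to 3′ as printed, lies 121, 134, 25 and 57 bases before the start in the 4 genes. The core occurs in 3338 of 32851 promoters of that length, or 10.2%, so a match is common and is a description of the letters, not a binding site. A share over the NRF2 lists is void, because 29 of the 37 tested members, under 80%, had a promoter in the table.

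The ATF4 targets, on which the pair was selected, did not move as 1 block between the compounds. The pair was chosen by their rise over DMSO, so their values are described here without a test, with 95% intervals of the difference. Of 60 genes on 4 ATF4 target lists, 57 were tested. Against DMSO, 56 of the 57 had a higher mean in Podofilox and 51 in Cardamonin, with medians of 0.65 and 0.94, both set against the same 6 DMSO libraries. Directly between the compounds, libraries did not overlap for 41 members, against 66.3% of all genes: 9 were higher in Podofilox and 32 in Cardamonin, and 16 overlapped. The 66.3% is also the reference for each of the 4 lists below. It was not split by direction, and 48.9% of all genes had a difference above 0. The median difference was -0.29 against -0.01 over all genes. For 23 of the 57 the whole interval lay within 0.5 of 0 on the log2 scale. That count is not set against a share of all genes here, so it does not show that ATF4 targets were more alike than others.

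Atf4 (ENSMUSG00000042406, chr15:80255184-80257541) read 289, 312 and 295 TPM in Podofilox, 282, 281 and 300.4 TPM in Cardamonin and from 125 to 144 (median 134) in DMSO. Both compounds lay above every DMSO library and overlapped each other, and the difference between them was 0.05 ± 0.05 with an interval of -0.05 to 0.15. Its partners and targets among the regulators spread in both directions: 4 of 14 tested were higher in every Podofilox library, 7 in every Cardamonin library and 3 overlapped. Gdf15, a secreted stress cytokine, read 7.01, 8.25 and 8.57 TPM in Podofilox, 186, 171 and 182 TPM in Cardamonin and from 3.87 to 5.92 (median 5.10) in DMSO. All Podofilox libraries were above DMSO, yet the difference between the compounds was -4.34 ± 0.10, or 20.2-fold on the log2(TPM + 1) scale. Trib3, a pseudokinase, read 22.8, 22.4 and 23.2 TPM in Podofilox, 72.2, 69.9 and 76.5 in Cardamonin and from 3.05 to 4.97 (median 4.68) in DMSO (-1.63 ± 0.11). Chac1, which degrades glutathione, read 16.6, 22.9 and 21.9 TPM in Podofilox and 40.4, 42.2 and 39.8 TPM in Cardamonin against 2.35 to 3.95 (median 3.12) in DMSO (-0.97 ± 0.14). Ddit3, which encodes CHOP, read 143, 141 and 152 TPM in Podofilox and 222, 199 and 268 TPM in Cardamonin (-0.65 ± 0.08). For these 3 genes the order was DMSO, Podofilox, Cardamonin in every library. Atf5 (-1.15 ± 0.06) and Sesn2 (-0.75 ± 0.08) had the same order.

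Other regulators ran level or the other way. Atf3 read 43.03, 45.9 and 43.4 TPM in Podofilox and 34.2, 32.7 and 36.9 TPM in Cardamonin, both above the DMSO range, from 4.32 to 7.48 (median 5.08), with Podofilox slightly higher (0.34 ± 0.13). Cebpb averaged 148 ± 19.98 TPM in Podofilox, 103 ± 9.32 in Cardamonin and 106 ± 16.9 in DMSO (0.51 ± 0.15), and both compounds overlapped DMSO. Stc2, a secreted glycoprotein, read 3.15, 3.60 and 3.49 TPM in Podofilox and 0.485, 0.566 and 1.40 TPM in Cardamonin (1.31 ± 0.17), with Podofilox above the DMSO range and Cardamonin overlapping it. Ddit4, which restrains mTORC1, overlapped between the compounds and with DMSO (interval -0.31 to 0.25), and Cebpg overlapped between the compounds while both lay above DMSO (interval -0.22 to 0.13). Nupr1 differed by 0.18 ± 0.06 and Ppp1r15a, which directs dephosphorylation of eIF2, by -0.23 ± 0.08. Fgf21 was not tested.

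Amino acid and one-carbon synthesis genes went in both directions. Phgdh, the first enzyme of serine synthesis, read 25.98, 30.2 and 32.05 TPM in Podofilox, 27.1, 27.4 and 33.2 TPM in Cardamonin and from 11.7 to 13.9 (median 12.7) in DMSO. The compounds overlapped, both above DMSO, with an interval of -0.22 to 0.24. Shmt2, the mitochondrial enzyme that passes the serine carbon to folate, likewise overlapped between the compounds (interval -0.28 to 0.12). Asns, asparagine synthetase, read 67.99, 62.02 and 70.1 TPM in Podofilox, 98.4, 88.3 and 104 in Cardamonin and from 26.5 to 32.8 (median 28.3) in DMSO, with Cardamonin highest, DMSO lowest and no overlap (-0.53 ± 0.09). Psat1 (-0.49 ± 0.11), Mthfd2 (-0.43 ± 0.17), Gpt2 (-0.38 ± 0.08) and Psph (-0.68 ± 0.08) were on the Cardamonin side as well. Mthfd1l, which makes formate in mitochondria, averaged 14.1 ± 0.896 TPM in Podofilox, 34.7 ± 1.42 in Cardamonin and 7.89 ± 0.767 in DMSO (-1.24 ± 0.09). Got1 overlapped between the compounds and Cth differed by -0.12 ± 0.12. Cbs was not tested.

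The 2 proline synthesis enzymes and a folate enzyme went the other way. Pycr1, which makes the last step to proline, read 31.6, 35.1 and 34.3 TPM in Podofilox, 8.30, 8.27 and 5.15 TPM in Cardamonin and from 13.9 to 19.3 (median 17.5) in DMSO. Podofilox lay above DMSO and Cardamonin below it, a difference of 2.10 ± 0.14. Aldh18a1, which makes the proline precursor, read 59.96, 62.8 and 62.3 TPM in Podofilox and 28.004, 32.02 and 25.95 TPM in Cardamonin, with DMSO from 27.8 to 35.3 (median 32.4). Podofilox was again above DMSO and Cardamonin overlapped it (1.08 ± 0.09). Aldh1l2, a mitochondrial folate enzyme that yields NADPH, read 13.5, 12.8 and 12.3 TPM in Podofilox and 3.98, 5.38 and 4.37 in Cardamonin, both above DMSO (1.32 ± 0.15).

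Transporters lay mostly on the Cardamonin side: of 10, 7 were higher in every Cardamonin library and 1 in every Podofilox library. The median difference was -0.73. Against DMSO the medians were 0.78 for Podofilox and 1.87 for Cardamonin. Slc7a11 (ENSMUSG00000027737, chr3:49892526-50443614), the cystine importer of system xc-, is known as a target of both ATF4 and NRF2. It read 69.2, 61.2 and 73.3 TPM in Podofilox, 422, 428 and 455 TPM in Cardamonin and from 15.7 to 25.7 (median 18.4) in DMSO, 3 groups without overlap (-2.67 ± 0.12). Slc3a2, the heavy chain that pairs with Slc7a11 and Slc7a5, read 184, 179.9 and 186 TPM in Podofilox and 608, 599 and 644 TPM in Cardamonin against 115 to 134 (median 129.8) in DMSO (-1.75 ± 0.06). Slc1a4, a neutral amino acid transporter, averaged 24.3 ± 0.849 and 84.98 ± 4.71 TPM (-1.76 ± 0.06), the glycine transporter Slc6a9 41.8 ± 3.79 and 92.98 ± 6.01 TPM (-1.14 ± 0.13), and Slc7a5, the leucine importer, 16.3 ± 0.557 and 31.7 ± 0.647 TPM (-0.92 ± 0.12). Slc38a1, a glutamine transporter, averaged 20.8 ± 1.03 and 22.3 ± 1.46 TPM against 7.13 ± 0.514 in DMSO, both above DMSO and overlapping each other (interval -0.24 to 0.05). Slc38a2 differed by 0.18 ± 0.05 toward Podofilox.

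The enzymes that charge tRNAs had a median difference of -0.23. Of 20, 11 were higher in every Cardamonin library, 1 in every Podofilox library and 8 overlapped. The share without overlap was below the 66.3% of all genes. Aars, the alanyl enzyme, read 84.3, 81.5 and 75.5 TPM in Podofilox, 161, 152 and 180.1 TPM in Cardamonin and from 34.1 to 44.3 (median 40.8) in DMSO (-1.02 ± 0.09). Wars (-0.70 ± 0.06), Nars (-0.58 ± 0.04) and Rars (-0.55 ± 0.05) followed in size. Iars and Yars had intervals of -0.21 to 0.04 and -0.25 to 0.13, with both compounds above DMSO. The export factor Xpot was listed near 0 and was not tested.

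**Figure D3:**
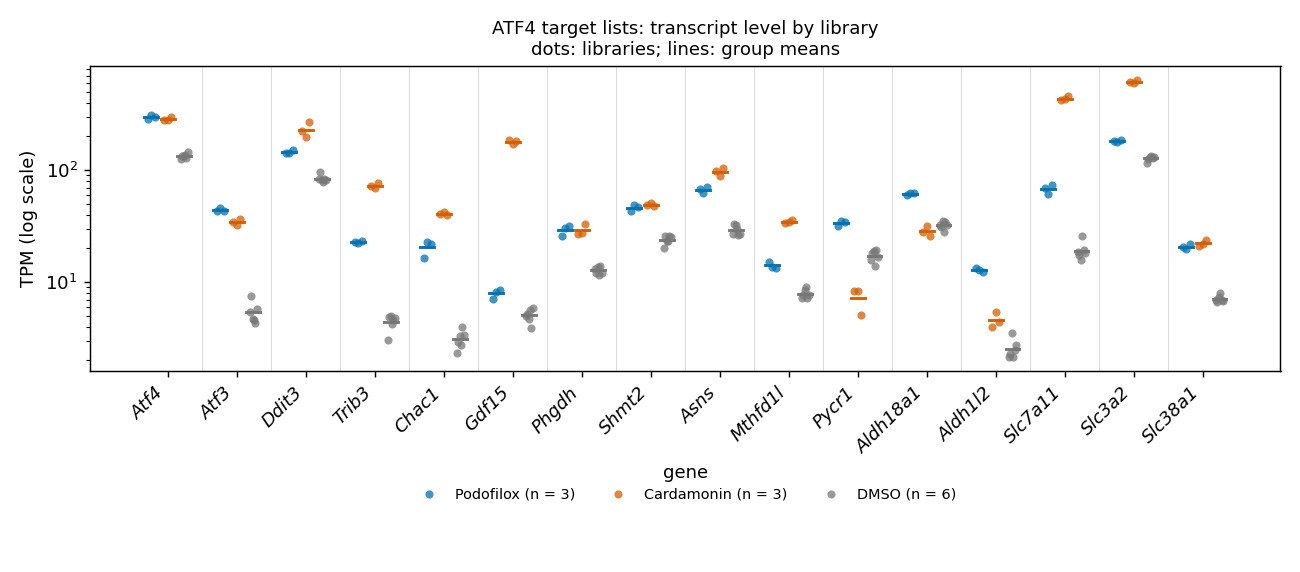
TPM on a log axis for 16 members of the ATF4 target lists, with 1 dot per library and a line at each group mean (Podofilox n = 3, Cardamonin n = 3, DMSO n = 6). Atf4, Phgdh and Shmt2 overlap between the compounds and lie above DMSO, Trib3, Chac1, Gdf15 and Slc7a11 are highest in Cardamonin, and Pycr1, Aldh18a1 and Aldh1l2 are highest in Podofilox.

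Atf3 and Chac1 are shown because, ranked by the smaller of a gene's rises over DMSO in the 2 compounds, they led the ATF4 list members whose promoter holds the C/EBP-ATF response element core, searched as TGATGNAA on either strand within 250 bases upstream. The stretches are Atf3 (chr1:191183411-191183468, minus strand) and Chac1 (chr2:119351024-119351081, plus strand) from the same RefSeq promoters of GRCm38.p6, with the match in capitals. Both matches are on the opposite strand.
Atf3: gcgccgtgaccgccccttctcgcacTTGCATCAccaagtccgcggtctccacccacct
Chac1: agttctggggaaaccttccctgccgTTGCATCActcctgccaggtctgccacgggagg
Both hold the same 8 letters, which begin 110 and 193 bases before the start, while the 2 genes differed in opposite directions between the compounds. The core occurs in 1134 of 32851 promoters, or 3.45%. A share over the ATF4 lists is void, as 43 of the 57 tested members had a promoter in the table.

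Genes of protein folding and degradation in the cytosol were higher in Cardamonin. Of 17 heat shock genes, limma called 16 higher in Cardamonin and none in Podofilox, where 0 had an unadjusted p under 0.05 (median -0.87); Cryab was not called (interval -0.58 to 0.43). Hspa1b, the inducible HSP70, read 23.1, 18.7 and 21.1 TPM in Podofilox, 122, 108 and 117 TPM in Cardamonin and from 16.6 to 28.7 (median 21.2) in DMSO (-2.41 ± 0.15, limma adjusted p = 2.6e-13). Podofilox overlapped DMSO and Cardamonin lay above both. Its near-identical neighbour Hspa1a differed by -1.54 ± 0.15, limma adjusted p = 1.2e-09, and since 68.1% of Hspa1b and 70.1% of Hspa1a words are shared with other genes, their split is uncertain. Hsph1, a nucleotide exchange partner of HSP70, read 41.5, 33.3 and 33.2 TPM in Podofilox and 100.02, 101 and 109 TPM in Cardamonin, both above DMSO (-1.50 ± 0.10, limma adjusted p = 1.7e-12). The small heat shock gene Hspb1 (55.4% of words shared) averaged 185 ± 10.7 and 518 ± 22.02 TPM (-1.48 ± 0.08, limma adjusted p = 7.0e-14), and the constitutive Hspa8 1171 ± 59.5 and 2056 ± 37.3 TPM (-0.81 ± 0.05, limma adjusted p = 3.6e-13).

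Proteasome subunits lay mostly on the Cardamonin side: 30 of 31 were called higher in Cardamonin, with differences of the whole list from -1.15 to 0.31 and a median of -0.66. Psmd11, a lid subunit, read 115, 110.1 and 112 TPM in Podofilox, 254, 246 and 251 in Cardamonin and from 61.2 to 75.98 (median 65.3) in DMSO (-1.15 ± 0.07, limma adjusted p = 9.4e-14). Psmd14, the lid deubiquitinase, averaged 94.2 ± 6.78 and 202 ± 5.12 TPM (-1.09 ± 0.06, limma adjusted p = 8.6e-14), and Psmd12 63.8 ± 0.854 and 122 ± 4.19 TPM (-0.92 ± 0.05, limma adjusted p = 6.1e-14). Psma5, a core subunit with 61% of words shared, differed by -1.15 ± 0.05, limma adjusted p = 1.0e-15. All Podofilox and all Cardamonin libraries were above DMSO for these 4 genes. Psmd8 alone was called higher in Podofilox, at 281 ± 9.80 against 227 ± 19.8 TPM (0.31 ± 0.06, limma adjusted p = 4.1e-05).

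Autophagy and lysosome genes were split, with 11 of 22 called higher in Cardamonin and 4 in Podofilox (median -0.19). The called share was 68.2%, against 61% of all genes, of which 30.9% were higher in Cardamonin and 30% in Podofilox. The lysosomal protease Ctsd averaged 2121 ± 30.4 TPM in Podofilox and 3616 ± 281 in Cardamonin (-0.77 ± 0.05, limma adjusted p = 2.1e-12) and the cholesterol exporter Npc1 38.03 ± 2.14 and 63.03 ± 1.57 TPM (-0.72 ± 0.07, limma adjusted p = 8.4e-10), while Wipi1 (0.82 ± 0.07, limma adjusted p = 3.7e-10) and Map1lc3a (0.73 ± 0.07, limma adjusted p = 2.0e-09), both of autophagosome formation, were higher in Podofilox. Targets of p53 were called higher in Cardamonin in 13 of 18 cases and in Podofilox in 3 (median -0.70). Mdm2, the ligase that degrades p53, read 128, 121 and 134 TPM in Podofilox, 384, 358 and 382 TPM in Cardamonin and from 100.2 to 142 (median 112) in DMSO (-1.55 ± 0.08, limma adjusted p = 4.8e-15). Podofilox overlapped DMSO for Mdm2. Trp53inp1 averaged 103 ± 12.6 and 292 ± 7.71 TPM (-1.50 ± 0.10, limma adjusted p = 5.5e-13), the death receptor gene Tnfrsf10b 21.5 ± 1.13 and 51.2 ± 1.36 TPM (-1.22 ± 0.07, limma adjusted p = 1.1e-13), and the cell cycle inhibitor Cdkn1a 420.1 ± 7.13 and 782 ± 21.8 TPM (-0.89 ± 0.06, limma adjusted p = 4.6e-12). Sesn1 (1.05 ± 0.07, limma adjusted p = 7.4e-13), Fas (0.90 ± 0.08, limma adjusted p = 8.3e-10) and Btg2 (0.55 ± 0.14, limma adjusted p = 0.0011) were the 3 higher in Podofilox. For Sesn1 and Fas both compounds lay below DMSO.

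Inflammation genes had the highest list median, 1.94: 26 of 29 tested were called higher in Podofilox and 3 higher in Cardamonin. Ccl11, Ccl20 and Csf3 passed the filter through Podofilox alone and so had to differ. In a separate fit of only the genes at 1 TPM in all 6 libraries, 25 members were tested. There, 22 were called higher in Podofilox and 3 in Cardamonin. Against DMSO the medians were -0.23 for Podofilox and -2.18 for Cardamonin, with the 6 DMSO libraries shared. Il6 (ENSMUSG00000025746, chr5:30013114-30019981), the cytokine, read 84.5, 96.6 and 67.8 TPM in Podofilox, 1.88, 3.16 and 0.827 TPM in Cardamonin and from 10.03 to 18.5 (median 15.5) in DMSO. The groups did not overlap, with Podofilox above DMSO and Cardamonin below it, and the compounds differed 29.7-fold on the log2(TPM + 1) scale (4.89 ± 0.27, limma adjusted p = 3.9e-14). Nos2, inducible nitric oxide synthase, read 319.6, 274 and 233 TPM in Podofilox, 17.6, 19.9 and 5.93 in Cardamonin and from 43.96 to 76.04 (median 62.3) in DMSO, in the same order (4.30 ± 0.26, limma adjusted p = 1.4e-13). Cxcl2, a neutrophil chemokine, read 45.9, 48.2 and 45.7 TPM in Podofilox and 2.28, 1.77 and 1.90 TPM in Cardamonin with DMSO from 20.4 to 26.9 (median 22.5), again with Podofilox above and Cardamonin below (4.00 ± 0.12, limma adjusted p = 3.5e-19). Ccl20, a chemokine for CCR6-bearing cells, read 25.95, 32.9 and 29.9 TPM in Podofilox and 0.287, 0.0843 and 0.220 TPM in Cardamonin, but DMSO ran from 62.7 to 95.5 (median 79.2), above both compounds.

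Abundant members showed the same separation. Saa3, an acute-phase protein and one of the most abundant messages, read 40789, 46533 and 46231 TPM in Podofilox, 5373, 5121 and 3033 TPM in Cardamonin and from 29576 to 34957 (median 32566) in DMSO (3.35 ± 0.13, limma adjusted p = 6.3e-17). Ccl2, the monocyte chemokine, averaged 4558 ± 121 TPM in Podofilox and 534 ± 66.99 in Cardamonin, and Podofilox overlapped DMSO (3.10 ± 0.08, limma adjusted p = 2.0e-20). Tnfaip3 (2.57 ± 0.11, limma adjusted p = 2.5e-16) and Nfkbia (1.75 ± 0.06, limma adjusted p = 9.5e-19), feedback inhibitors of NF-kB, were higher in Podofilox, where both overlapped DMSO. The receptor Il1rl1 averaged 1325 ± 60.9 TPM in Podofilox, 346 ± 42.3 in Cardamonin and 413 ± 43.6 in DMSO (1.94 ± 0.09, limma adjusted p = 1.4e-15). The 3 exceptions were Ptgs2, Csf1 and Ptges. Ptgs2, cyclooxygenase 2, read 36.04, 35.03 and 32.1 TPM in Podofilox, 231, 241 and 178 TPM in Cardamonin and from 21.8 to 30.8 (median 24.8) in DMSO (-2.61 ± 0.10, limma adjusted p = 5.3e-17). Ptges, which makes prostaglandin E2 from its product, averaged 103 ± 4.97 and 163 ± 9.27 TPM (-0.65 ± 0.09, limma adjusted p = 5.6e-07), and both genes were above DMSO in both compounds. Csf1, the macrophage growth factor, averaged 298 ± 19.9 TPM in Podofilox, below DMSO, and 717 ± 10.1 in Cardamonin, above it (-1.27 ± 0.08, limma adjusted p = 2.2e-13). The leukocyte marker sums given above were lower in Podofilox than in Cardamonin, but they were led by Lyz2. Whether leukocyte content bears on the inflammation list was not tested.

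Interferon response genes had list medians below DMSO in both compounds, -1.29 for Podofilox and -2.50 for Cardamonin. Directly, 22 of 25 were called higher in Podofilox and 1 higher in Cardamonin (median 0.98). Leaving out 1 library at a time gave from 17 (without Cardamonin replicate 2) to 23 called higher in Podofilox. The median was 0.70 with a pseudocount of 5 and 1.30 with a pseudocount of 0.1. Gbp2, a guanylate-binding GTPase, read 41.6, 46.4 and 49.96 TPM in Podofilox, 8.28, 6.96 and 5.91 TPM in Cardamonin and from 62.7 to 97.5 (median 88.9) in DMSO, with no overlap (2.55 ± 0.12, limma adjusted p = 1.1e-15). Zbp1, a nucleic acid sensor, averaged 14.4 ± 3.08 and 2.85 ± 0.534 TPM (1.99 ± 0.15, limma adjusted p = 8.3e-12), and Oasl2 20.6 ± 4.30 and 5.25 ± 1.65 TPM (1.81 ± 0.18, limma adjusted p = 2.1e-09), both below DMSO in both compounds. Irf7, the factor that amplifies the response, averaged 16.6 ± 2.90 and 8.29 ± 1.55 TPM against 61.6 ± 8.90 in DMSO (0.92 ± 0.15, limma adjusted p = 1.1e-05). Mx2 alone was called higher in Cardamonin (-0.86 ± 0.18, limma adjusted p = 1.8e-04), and Bst2 and Irgm1 were not called. In a fit of genes annotated as protein-coding only, 24 members were tested, with 22 called higher in Podofilox and 0 in Cardamonin. The genes not tested were Rsad2, Oas2, Oasl1, Mx1 and Cmpk2.

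Matrix genes stood mostly higher in Podofilox. Of 27 tested, 22 were called higher in Podofilox and 3 in Cardamonin (median 1.03), with list medians against DMSO of -0.37 and -1.45. Tnc, which encodes the adhesion-modulating glycoprotein tenascin C, read 194, 181 and 179 TPM in Podofilox, 11.1, 19.96 and 4.62 TPM in Cardamonin and from 143 to 167 (median 154) in DMSO. Cardamonin libraries were far below the rest but spread widely among themselves (4.04 ± 0.24, limma adjusted p = 1.0e-13). Col1a1, the main collagen I chain, read 945, 876 and 971 TPM in Podofilox, 382, 426 and 289 TPM in Cardamonin and from 821 to 1275 (median 935) in DMSO, where Podofilox overlapped DMSO and Cardamonin lay below (1.36 ± 0.15, limma adjusted p = 1.7e-08). The crosslinking enzyme Loxl2 (46.4% of words shared) averaged 165 ± 2.74 and 35.4 ± 7.28 TPM (2.20 ± 0.10, limma adjusted p = 4.2e-16), Lox 1782 ± 68.4 and 409 ± 101 TPM (2.15 ± 0.11, limma adjusted p = 1.1e-14) and the proteoglycan Dcn 1742 ± 33.97 and 454 ± 97.8 TPM (1.96 ± 0.09, limma adjusted p = 8.8e-16). Col11a1 (-0.68 ± 0.12, limma adjusted p = 2.2e-05), Col4a1 (-0.41 ± 0.09, limma adjusted p = 3.0e-04) and Col4a2 (-0.32 ± 0.10, limma adjusted p = 0.0084), the latter 2 being basement membrane collagens, were higher in Cardamonin. Col1a1, Col1a2, Dcn and Lum are also among the 10 fibroblast markers whose sum was lower in Cardamonin.

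Among matrix proteases and their inhibitors 15 of 19 were called higher in Podofilox and 2 in Cardamonin (median 0.89). Mmp12, macrophage elastase, read 647, 746 and 731 TPM in Podofilox, 65.2, 56.1 and 58.8 TPM in Cardamonin and from 22.5 to 31.6 (median 26.9) in DMSO. Both compounds were above DMSO and the 3 groups did not overlap (3.54 ± 0.12, limma adjusted p = 1.2e-18). Mmp10, stromelysin 2, read 212, 189.5 and 186 TPM in Podofilox and 37.3, 39.4 and 40.3 TPM in Cardamonin, where Cardamonin overlapped DMSO (24.7 to 40.3, median 32.998; 2.30 ± 0.14, limma adjusted p = 1.3e-13). Mmp3, stromelysin 1, was among the most abundant messages at 26142 ± 869 and 13679 ± 1625 TPM (0.94 ± 0.07, limma adjusted p = 1.6e-11). Adamts4, an aggrecanase, averaged 23.97 ± 6.69 and 4.46 ± 4.10 TPM (2.41 ± 0.38, limma adjusted p = 6.2e-06), and Plat, tissue plasminogen activator, 133 ± 1.68 and 41.6 ± 5.04 TPM (1.66 ± 0.06, limma adjusted p = 2.6e-17). Plaur (-0.63 ± 0.16, limma adjusted p = 0.0016) and Mmp19 (-0.20 ± 0.07, limma adjusted p = 0.012) were higher in Cardamonin.

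Contractile genes had medians against DMSO of -0.55 in Podofilox and -1.71 in Cardamonin. Directly, 9 of 13 tested were called higher in Podofilox and 2, Flna and Actn1, in Cardamonin (median 0.79). Acta2, the smooth muscle actin that marks myofibroblasts, read 20.8, 35.5 and 41.2 TPM in Podofilox, 1.84, 1.89 and 1.52 TPM in Cardamonin and from 194 to 323 (median 248) in DMSO, 3 groups without overlap (3.56 ± 0.16, limma adjusted p = 6.3e-16). Tagln, transgelin (62.2% of words shared), averaged 38.98 ± 12.2, 4.87 ± 1.63 and 135 ± 17.5 TPM in Podofilox, Cardamonin and DMSO (2.75 ± 0.20, limma adjusted p = 4.8e-12), and Myl9, a myosin light chain, 20.7 ± 2.22, 2.76 ± 0.572 and 107 ± 15.5 TPM (2.54 ± 0.12, limma adjusted p = 1.4e-15). The smoothelin gene Smtn (1.90 ± 0.12, limma adjusted p = 6.6e-13) overlapped DMSO in Podofilox. Of the 6 members not tested, Acta1, Actg2, Cnn1 and Lmod1 were below DMSO in both compounds.

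Genes that respond to YAP or TGF-beta were called higher in Podofilox in 13 of 15 cases and in Cardamonin in 2 (median 0.93). Ccn2, connective tissue growth factor, read 37.4, 45.98 and 49.98 TPM in Podofilox, 1.68, 3.997 and 0.634 TPM in Cardamonin and from 103 to 167 (median 126) in DMSO (4.01 ± 0.22, limma adjusted p = 4.0e-14). Ccn1, its relative, read 64.9, 88.1 and 94.9 TPM in Podofilox and 10.9, 10.3 and 7.75 TPM in Cardamonin (2.97 ± 0.19, limma adjusted p = 8.4e-13), and Amotl2, a feedback inhibitor of YAP, 58.2, 58.4 and 71.2 TPM in Podofilox and 7.13, 6.996 and 3.95 TPM in Cardamonin (3.21 ± 0.15, limma adjusted p = 1.3e-15). Both compounds lay below DMSO for all 3 genes, with Cardamonin lowest. Tgfbi read 107, 104 and 74.1 TPM in Podofilox and 20.8, 40.6 and 6.27 TPM in Cardamonin (2.34 ± 0.33, limma adjusted p = 1.1e-06), and without Cardamonin replicate 3 its difference was 1.65. Ankrd1 passed the filter through Podofilox alone and had to differ. In a separate fit of only the genes at 1 TPM in all 6 libraries, 13 YAP and TGF-beta responsive genes were tested. There, 11 were called higher in Podofilox and 2 in Cardamonin. The 2 members called higher in Cardamonin were the ligand genes Tgfb2 (-0.96 ± 0.08, limma adjusted p = 6.1e-11) and Tgfb1 (-0.79 ± 0.07, limma adjusted p = 6.2e-10). Cardamonin libraries were above DMSO for both.

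**Figure D4:**
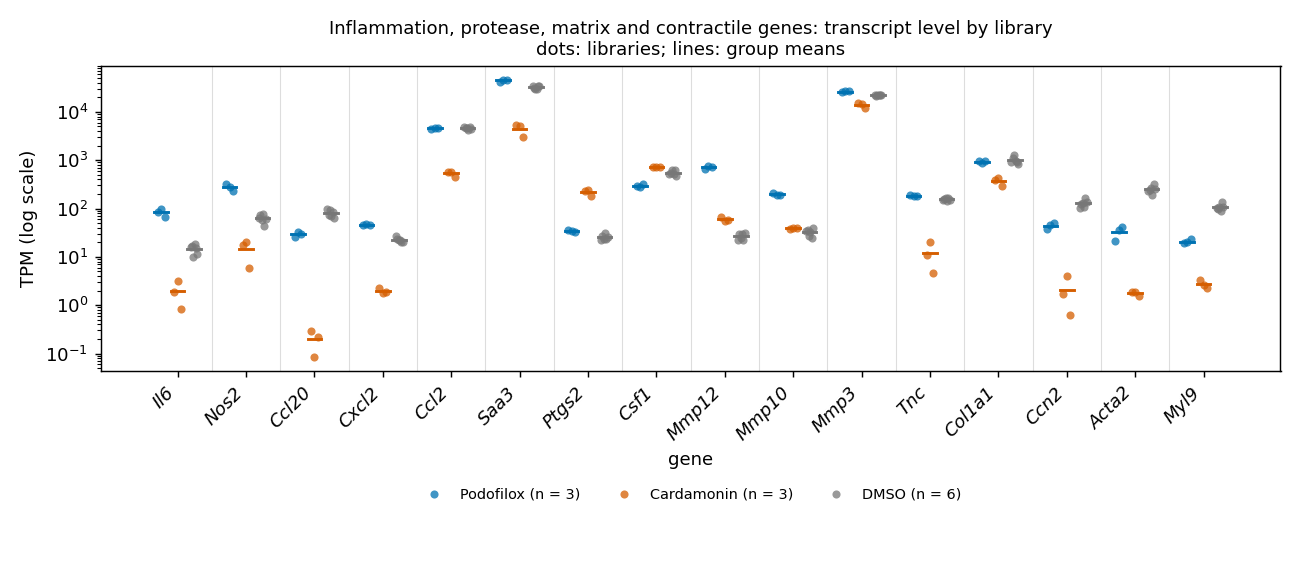
TPM on a log axis for 16 inflammation, protease, matrix and contractile genes, with 1 dot per library and a line at each group mean (Podofilox n = 3, Cardamonin n = 3, DMSO n = 6). Cardamonin is the lower of the 2 compounds for every gene shown except Ptgs2 and Csf1, and for Ccl20, Ccn2, Acta2 and Myl9 both compounds are below DMSO.

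Tubulin genes, the target protein family of Podofilox, went both ways: 4 of 13 tested were called higher in Podofilox, 5 higher in Cardamonin and 4 neither, a called share near the 61% of all genes, with a median of -0.09. Among alpha tubulins, Tuba1a read 315, 358 and 366 TPM in Podofilox, 253, 259 and 263 TPM in Cardamonin and from 331 to 411 (median 363) in DMSO (0.42 ± 0.07, limma adjusted p = 1.6e-05). Podofilox overlapped DMSO and Cardamonin lay below. Tuba1b read 146, 161 and 158 TPM in Podofilox and 147, 137 and 146 in Cardamonin, both below DMSO (176 to 229.97, median 216), and was not called (interval -0.04 to 0.27). Tuba1c averaged 50.3 ± 3.37 and 69.5 ± 3.34 TPM (-0.46 ± 0.07, limma adjusted p = 4.1e-06), with Podofilox below the DMSO range. Tuba4a read 52.3, 49.4 and 52.4 TPM in Podofilox, 149.8, 152 and 180.3 TPM in Cardamonin and from 41.3 to 52.3 (median 43.7) in DMSO, where Podofilox overlapped DMSO and Cardamonin stood 3.08-fold higher than Podofilox (-1.62 ± 0.08, limma adjusted p = 9.8e-15). Shared words made up 78.6% of Tuba1a, 78.7% of Tuba1b, 55.3% of Tuba1c and 38.4% of Tuba4a, so the split between these copies is uncertain.

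Beta tubulins differed in both directions. Tubb4b read 73.3, 77.2 and 85.4 TPM in Podofilox, 209, 204 and 219 TPM in Cardamonin and from 82.5 to 95.9 (median 92.2) in DMSO, and Podofilox overlapped DMSO (-1.41 ± 0.07, limma adjusted p = 3.3e-15). Tubb2a read 49.5, 55.2 and 49.6 TPM in Podofilox, 85.4, 84.6 and 88.9 in Cardamonin and from 49.2 to 53.7 (median 51.7) in DMSO, with the same order (-0.74 ± 0.05, limma adjusted p = 8.5e-12). Tubb2b, its neighbour, read 15.7, 19.9 and 18.4 TPM in Podofilox, 7.02, 7.03 and 7.90 TPM in Cardamonin and from 4.20 to 5.51 (median 4.70) in DMSO. Both compounds were above DMSO for Tubb2b and Podofilox was the highest (1.19 ± 0.09, limma adjusted p = 3.7e-11). Shared words made up 53% of Tubb4b, 56.4% of Tubb2a and 43.1% of Tubb2b. Tubb5, the most abundant beta tubulin in Podofilox, read 194, 197 and 209 TPM in Podofilox and 178, 193 and 193 in Cardamonin, and was not called (interval -0.01 to 0.19). Tubb6 differed by -0.33 ± 0.07, limma adjusted p = 1.9e-04 and the neuronal form Tubb3, near 1 TPM, was not called (interval -0.50 to 0.07). Among gamma and delta tubulins of the centrosome, Tubg1 was not called (interval -0.24 to 0.06), Tubg2 read 10.3, 10.1 and 9.61 TPM in Podofilox and 5.36, 5.71 and 3.82 in Cardamonin (0.90 ± 0.10, limma adjusted p = 1.8e-08), and Tubd1 averaged 4.76 ± 0.302 and 3.55 ± 0.783 TPM (0.35 ± 0.12, limma adjusted p = 0.011), both below DMSO in both compounds. The call for Tubd1 was lost when Cardamonin replicate 3 was left out (difference 0.24, limma adjusted p = 0.10). It was also lost with the 6 libraries fitted alone (limma adjusted p = 0.055). Under quantile normalization Tuba1b (0.21), Tubb5 (0.20) and Tubb3 (-0.51) were called and Tubd1 was not. Tuba8, Tubb1, Tubb4a and Tube1 were not tested.

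**Figure D5:**
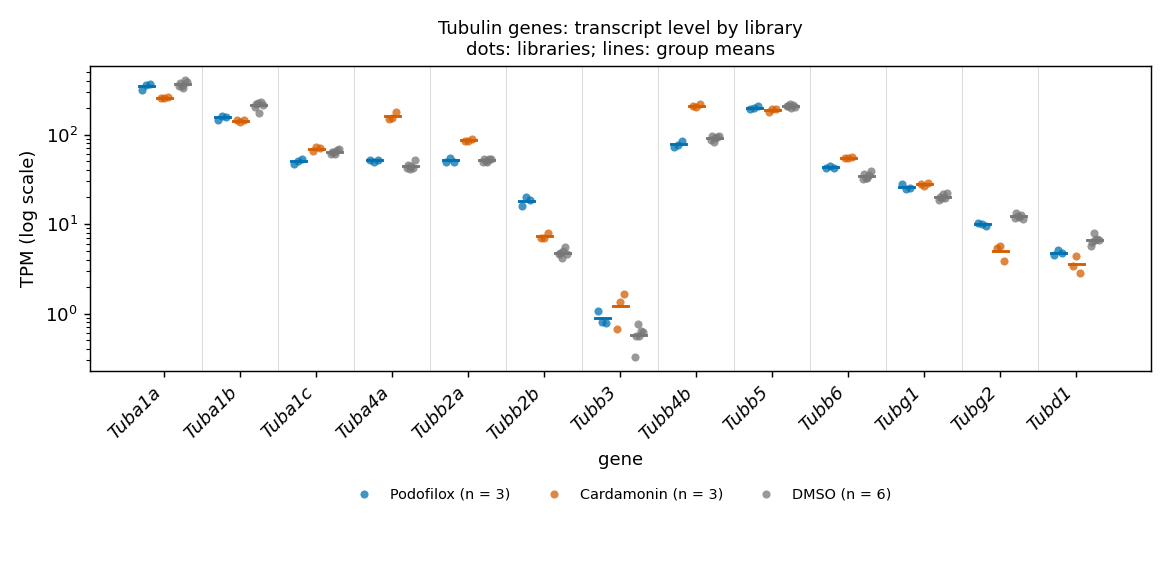
TPM on a log axis for the 13 tubulin genes tested, with 1 dot per library and a line at each group mean (Podofilox n = 3, Cardamonin n = 3, DMSO n = 6). Tuba4a, Tubb2a and Tubb4b are highest in Cardamonin, Tubb2b is highest in Podofilox, and Tuba1b is below DMSO in both compounds.

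Genes that fold, read or bind tubulin were called higher in Cardamonin in 7 of 15 cases and in Podofilox in 2 (median -0.17). The called share of 60% was near the 61% of all genes, of which 30.9% were higher in Cardamonin and 30% in Podofilox. Ttc5, the factor that recognises nascent tubulin in autoregulation, read 25.2, 26.2 and 25.5 TPM in Podofilox, 29.5, 29.6 and 33.7 in Cardamonin and from 24.8 to 26.7 (median 25.6) in DMSO (-0.26 ± 0.06, limma adjusted p = 2.4e-04), with Podofilox inside the DMSO range. The microtubule-associated genes Map1b (-0.78 ± 0.08, limma adjusted p = 9.2e-09) and Map4 (-0.63 ± 0.07, limma adjusted p = 2.4e-08) were higher in Cardamonin. Stmn1, which sequesters tubulin dimers, averaged 42.2 ± 4.22 and 35.2 ± 3.23 TPM (0.25 ± 0.09, limma adjusted p = 0.019) and its relative Stmn2 6.48 ± 0.377 and 3.16 ± 0.914 TPM (0.87 ± 0.12, limma adjusted p = 5.7e-07). Arhgef2, a RhoA activator released from microtubules, averaged 103 ± 5.32 and 106 ± 11.2 TPM against 47.03 ± 4.76 in DMSO, with no difference called between the compounds (interval -0.26 to 0.18).

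Mitotic genes were low in all 6 libraries: of 26 listed, 14 passed the filter, and of these 3 were called higher in Podofilox, 2 higher in Cardamonin and 9 neither (median 0.08, and -0.13 under quantile normalization). The called share of 35.7% was below the 61% of all genes. Cdk1, the mitotic kinase, read 20.1, 22.1 and 21.2 TPM in Podofilox, 9.20, 10.8 and 8.66 TPM in Cardamonin and from 30.1 to 32.2 (median 31.9) in DMSO, with both compounds below DMSO (1.07 ± 0.12, limma adjusted p = 3.2e-08). Top2a (0.46 ± 0.17, limma adjusted p = 0.024), Ube2c (0.48 ± 0.19, limma adjusted p = 0.029) and Aurka (-0.23 ± 0.08, limma adjusted p = 0.02) were other called members, all with means under 3 TPM. Hmmr, the last of them, read 0.854, 0.622 and 0.707 TPM in Podofilox and 1.13, 1.06 and 1.22 TPM in Cardamonin, so it passed the filter through Cardamonin alone and had to differ. In a separate fit of only the genes at 1 TPM in all 6 libraries, 10 mitotic genes were tested. There, 2 were called higher in Podofilox and 1 in Cardamonin. The proliferation marker Mki67, which averaged 0.175 TPM in Podofilox and 0.0245 in Cardamonin, and Ccnb1, which encodes cyclin B1, were among the 12 not tested. Replication genes were called higher in Podofilox in 7 of 18 cases and in Cardamonin in 4 (median 0.13, and -0.03 under quantile normalization). Their called share of 61.1% was near that of all genes. In that separate fit 17 replication genes were tested, and 6 were called higher in Podofilox and 5 in Cardamonin. Mcm7, a helicase subunit, averaged 38.98 ± 1.97 and 77.4 ± 5.50 TPM (-0.97 ± 0.07, limma adjusted p = 1.4e-11), and Pcna, the polymerase clamp and also a p53 target, 57.4 ± 4.19 and 107 ± 7.60 TPM (-0.89 ± 0.07, limma adjusted p = 4.8e-11), while the primase gene Prim1 was higher in Podofilox (0.99 ± 0.14, limma adjusted p = 7.8e-07). The calls for Top2a and Ube2c ended without Cardamonin replicate 3 (limma adjusted p = 0.22 and 0.11) and without Podofilox replicate 3 (limma adjusted p = 0.14 and 0.086). That for Ube2c also ended without Cardamonin replicate 1 (0.090) and without Podofilox replicate 1 (0.076). Under quantile normalization both calls were lost (limma adjusted p = 0.12 and 0.16). With the 6 libraries fitted alone Top2a (limma adjusted p = 0.095) and Hmmr (0.060) were not called, nor was Ube2c with a pseudocount of 5 (0.060). Top2a libraries overlapped between the compounds.

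Endoplasmic reticulum folding genes were divided evenly, with 6 of 19 called higher in each compound and a median of 0.04. The called share of 63.2% was near the 61% of all genes. Hspa5, the chaperone BiP, read 1142, 1174 and 1228 TPM in Podofilox, 1043, 1017 and 929 TPM in Cardamonin and from 655 to 724 (median 678) in DMSO, with both compounds above DMSO (0.25 ± 0.05, limma adjusted p = 2.5e-04). Xbp1, a transcription factor of the unfolded protein response, read 199.96, 201 and 199 TPM in Podofilox, above DMSO, and 101, 113 and 91.2 TPM in Cardamonin, below it (0.97 ± 0.05, limma adjusted p = 3.5e-14). Herpud1, of the degradation complex, had the same order (0.73 ± 0.06, limma adjusted p = 8.3e-11), and the lectin chaperone Canx was higher in Cardamonin (-0.71 ± 0.04, limma adjusted p = 3.9e-13). For Manf, Creld2 and Pdia6 the intervals were -0.09 to 0.16, -0.13 to 0.14 and -0.09 to 0.08. Cholesterol synthesis genes were called higher in Podofilox in 12 of 23 cases and in Cardamonin in 3, by small amounts (median 0.17). Their called share was 65.2%, near that of all genes, of which 30% were higher in Podofilox and 30.9% in Cardamonin. Mvk (0.60 ± 0.08, limma adjusted p = 8.4e-07) and Dhcr7 (0.55 ± 0.11, limma adjusted p = 1.2e-04) were higher in Podofilox, and Hsd17b7 (-0.61 ± 0.08, limma adjusted p = 5.0e-07) was higher in Cardamonin.

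AP-1 and immediate early genes went both ways, 11 of 25 higher in Podofilox and 6 in Cardamonin (median 0.07). The called share was 68%, against 61% of all genes. Dusp1, a phosphatase of stress kinases, read 179, 191 and 169 TPM in Podofilox, 38.3, 43.5 and 30.96 TPM in Cardamonin and from 78.04 to 97.1 (median 84.2) in DMSO (2.24 ± 0.10, limma adjusted p = 1.0e-15), and Jund averaged 141 ± 19.3 and 60.4 ± 1.27 TPM (1.20 ± 0.13, limma adjusted p = 7.2e-09). Areg, an EGF receptor ligand, read 0.253, 0.310 and 0.299 TPM in Podofilox and 8.12, 7.42 and 5.62 TPM in Cardamonin, and passed the filter through Cardamonin alone, so it had to differ. In a separate fit of only the genes at 1 TPM in all 6 libraries, 23 members were tested. There, 11 were called higher in Podofilox and 6 in Cardamonin (median 0.28). Toward Cardamonin were Dusp4, an ERK phosphatase (-2.29 ± 0.12, limma adjusted p = 9.5e-15) and Fosl1 (-1.38 ± 0.08, limma adjusted p = 1.1e-13; 54.5% of words shared). Dusp4 read 7.36, 6.14 and 7.53 TPM in Podofilox, 35.5, 36.5 and 42.4 TPM in Cardamonin and from 1.49 to 2.57 (median 2.18) in DMSO, with no overlap. Glycolysis and hypoxia genes were also divided, 12 of 26 higher in Podofilox and 8 in Cardamonin (median 0.07, 76.9% called). Pfkfb3, which makes the activator of phosphofructokinase, read 57.4, 47.3 and 37.5 TPM in Podofilox, 8.05, 10.7 and 6.40 TPM in Cardamonin and from 20.4 to 27.4 (median 22.9) in DMSO (2.37 ± 0.15, limma adjusted p = 7.8e-13). The lactate exporter Slc16a3 (1.99 ± 0.21, limma adjusted p = 5.8e-09), the kinase Pdk1 (1.87 ± 0.14, limma adjusted p = 2.1e-11) and Ldha (1.38 ± 0.09, limma adjusted p = 2.5e-12) had the same order, Podofilox above DMSO and Cardamonin below. The glucose importer Slc2a1 averaged 185 ± 14.9 and 354 ± 15.7 TPM (-0.93 ± 0.11, limma adjusted p = 4.3e-08) and Pkm 1637 ± 73.4 and 2891 ± 157 TPM (-0.82 ± 0.07, limma adjusted p = 2.6e-10), higher in Cardamonin.

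None of the 13 mitochondrially encoded genes was called by limma in either direction, where 61% of all genes were called. At an unadjusted p under 0.05, 0 were higher in Podofilox and 0 in Cardamonin, and the differences ran from -0.20 to 0.30. With quantile normalization 2 were called higher in Podofilox, and 1 with the 6 libraries fitted alone or without Podofilox replicate 2. mt-Co1, a core subunit of cytochrome oxidase, read 8662, 8687 and 9138 TPM in Podofilox, 8773, 9156 and 8776 TPM in Cardamonin and from 9344 to 11019.5 (median 9969) in DMSO, with an interval of -0.16 to 0.13 between the compounds. Of 26 nuclear respiratory chain genes, 4 were called higher in Podofilox and 7 in Cardamonin, and the largest differences were Cox5a (-0.48 ± 0.06, limma adjusted p = 2.9e-07) and Atp5a1 (0.39 ± 0.05, limma adjusted p = 2.0e-07). Among metallothioneins and zinc transporters, Mt1 was higher in Cardamonin (-0.81 ± 0.11, limma adjusted p = 4.0e-07), Mt2 was not called (interval -0.12 to 0.13), Slc30a1, a zinc exporter, was higher in Cardamonin (-0.42 ± 0.09, limma adjusted p = 1.3e-04) and Slc39a10, a zinc importer, higher in Podofilox (1.33 ± 0.07, limma adjusted p = 3.9e-14).

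Several of the 10 genes with the largest difference in each direction belong to none of the lists. Toward Podofilox, Ptx3, a soluble pattern recognition protein, read 887, 968 and 954 TPM in Podofilox, 41.98, 37.8 and 26.8 TPM in Cardamonin and from 646 to 838 (median 726) in DMSO (4.71 ± 0.11, limma adjusted p = 5.2e-21). Col24a1, a fibrillar collagen, read 60.5, 52.7 and 56.7 TPM in Podofilox and 2.61, 3.58 and 1.34 TPM in Cardamonin (4.09 ± 0.16, limma adjusted p = 2.7e-17), and Podofilox overlapped DMSO. Agtr1a, an angiotensin II receptor, read 25.8, 27.5 and 30.5 TPM in Podofilox and 1.13, 1.27 and 0.523 TPM in Cardamonin (3.89 ± 0.13, limma adjusted p = 7.4e-19), with DMSO from 66.2 to 96.2 (median 79.4) above both compounds. Rasl11a, a small GTPase, read 45.1, 44.5 and 43.02 TPM in Podofilox and 2.64, 2.62 and 1.41 TPM in Cardamonin (3.84 ± 0.11, limma adjusted p = 1.5e-19), Podofilox above and Cardamonin below DMSO. Toward Cardamonin were Akr1c18, a steroid-reducing aldo-keto reductase, at 2.57, 2.87 and 2.77 TPM in Podofilox and 66.6, 63.8 and 70.7 TPM in Cardamonin (-4.19 ± 0.12, limma adjusted p = 5.4e-20), and Adh7, an alcohol dehydrogenase acting on retinol, at 20.5, 20.5 and 22.5 TPM in Podofilox and 359.7, 361 and 446 TPM in Cardamonin (-4.13 ± 0.12, limma adjusted p = 1.5e-19). Podofilox overlapped DMSO for both. Ednrb, the endothelin B receptor, read 5.49, 4.86 and 5.52 TPM in Podofilox, 59.6, 64.8 and 71.8 TPM in Cardamonin and from 0.760 to 2.13 (median 1.07) in DMSO, both compounds above (-3.40 ± 0.15, limma adjusted p = 3.0e-16).

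Some genes shifted by like amounts from DMSO in both compounds. They were picked for that pattern, as genes not called between the compounds whose interval lay within 0.5 of 0, so their values are a description, and both shifts use the same DMSO libraries. Itgb3, an integrin subunit, read 17.7, 16.2 and 17.4 TPM in Podofilox, 15.6, 16.4 and 17.9 TPM in Cardamonin and from 3.57 to 4.86 (median 3.95) in DMSO (interval -0.14 to 0.22). Plekho1 read 148, 165 and 142 TPM in Podofilox and 135, 142 and 172 TPM in Cardamonin against 41.1 to 57.1 (median 42.9) in DMSO, and Tnfrsf12a, the receptor of TWEAK, 84.6, 95.1 and 91.1 TPM in Podofilox and 91.9, 80.5 and 93.1 TPM in Cardamonin against 23.3 to 32.7 (median 27.4). These 3 lay above every DMSO library. Below every DMSO library were Cyp2f2, a cytochrome P450, with 8.73, 7.95 and 6.65 TPM in Podofilox and 7.90, 6.58 and 5.52 TPM in Cardamonin against 42.1 to 59.8 (median 54.5), Dkk2, a WNT pathway regulator, with 8.28, 7.76 and 10.3 TPM in Podofilox and 10.2, 12.1 and 8.91 TPM in Cardamonin against 35.2 to 48.2 (median 37.1), and the collagen VI chain gene Col6a3 with 74.6, 56.96 and 55.4 TPM in Podofilox and 69.5, 80.03 and 45.5 TPM in Cardamonin against 149 to 182 (median 172). Leaving out 1 library brought Cyp2f2 (without Cardamonin replicate 1), Dkk2 (without Cardamonin replicate 3 or Podofilox replicate 3) and Col6a3 (without Cardamonin replicate 3) past the threshold between the compounds, at limma adjusted p = 0.042, 0.028, 0.021 and 0.044.

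The Cardamonin libraries differed from each other among the genes called at least 2-fold between the compounds. Their order over the other genes was not counted, so whether it is particular to these genes was not tested. Of the 829 genes called at least 2-fold higher in Podofilox, Cardamonin replicate 3 was the lowest of the 3 Cardamonin libraries for 613 (73.9%) and replicate 2 the highest for 546 (65.9%). Of the 464 genes called at least 2-fold higher in Cardamonin, replicate 3 was the highest for 327 (70.5%) and replicate 2 the lowest for 277 (59.7%). Among Podofilox libraries the corresponding shares ran from 21.3% to 46.3%. Without Cardamonin replicate 3, 7051 genes were called and 1182 at least 2-fold, against 7680 and 1293 with all libraries. Il6, Nos2, Tnc and Ccn2 had their lowest Cardamonin value in replicate 3.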

How the data were processed

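RNA was extracted with RNAzol and ribodepleted with a kit the labels do not name, and libraries were sequenced on an Illumina HiSeq4000, per the labels' protocols and the series' design text. The authors quantified transcripts with kallisto 0.43.1 and checked reads with FastQC, and mm10 is the build named, per the submitters' processing notes; the design text adds tximport for gene summaries and DESeq2 for the authors' own tests. The transcript index is not given in the sources used here. The deposited table holds TPM made by the authors, 1 column per library, in which a value is a share of its own library; sequencing depth cannot be recovered from it, so precision rests on the spread of replicates.

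Identifiers were matched to GENCODE M21 on GRCm38 (29505 of 29861 matched, 356 not), and coordinates are 1-based whole-gene positions there. The filter kept genes that reached 1 TPM in 3 or more of the 6 libraries. Their log2(TPM + 1) values were tested with limma 3.58.1 in R 4.3.3: all 30 libraries in 9 groups, 1 mean per group, intensity trend, no block, two-sided, with Benjamini-Hochberg adjustment over the 12596 genes at 0.05. The script was tested on simulated data. Sequence sharing is the percentage of a gene's 31-base words found in transcripts of other genes. Motifs were searched as letters in RefSeq promoters.

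The pair, the gene lists and the naming rule were chosen with earlier results of these data known. Named genes were the 10 with the largest difference in each direction (called, at least 5 TPM in the higher group, groups not overlapping), up to 4 called members of each list, all tested tubulins, up to 3 genes in each direction with a shared shift from DMSO, the genes nearest to the filter, and list members where a small count is given; other list members are named as examples chosen after their values were seen. The labels give 6 DMSO libraries where the design text speaks of 5, and all 6 were used. Alternatives changed the pseudocount, the filter, the scaling, the fit, the replicate block and each library in turn. Single values of a few list members are not reported here.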

Additional observations from a re-analysis of the deposited data

Results flagged for a closer look

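In 8 of 137 DMSO groups tested (5.84%), 1 library stood apart from the other 5 by Dixon's gap criterion, which chance meets in about 1 in 20 groups. DMSO replicate 4 was high for Aldh3a1 (52.2 TPM, the next library 36.8) and Slc7a11 (25.7 TPM, next 19.4). DMSO replicate 6 was high for Slc16a3 (52.6 TPM, next 39.3) and Slc30a1 (3.21 TPM, next 2.90) and low for Zbp1 (27.1 TPM, next 39.1). DMSO replicate 1 was low for Trib3 (3.05 TPM, next 4.26) and high for Rab26 (2.28 TPM, next 1.37). DMSO replicate 3 was low for Cdk1 (30.1 TPM, next 31.7). The direct difference between the compounds uses the DMSO libraries only through the shared spread.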

How the results depend on the processing

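Across the alternatives tried, between 6418 and 8363 genes were called (7680 as reported) and 45.3% to 54.4% of the calls were higher in Podofilox (49.2% as reported). With a pseudocount of 5 the genes called at least 2-fold fell to 708 from 1293, by the construction of that scale, and with a pseudocount of 0.1 they came to 1666. Leaving out 1 library at a time gave 7051 to 7377 calls, of which 3453 to 3683 were higher in Podofilox and 3490 to 3745 in Cardamonin, and 1182 to 1382 calls of at least 2-fold. Replicate numbers carry no stated meaning: deviations of same-numbered libraries correlated at -0.07, 0.01 and -0.01. A replicate block gave 7845 calls, and changed the call of Tubb5 (limma adjusted p = 0.049) and Rab26 (0.032) among the 135 named genes. Of 2406 values of named genes under the alternatives, 2360 kept direction and side of the threshold, 12 values of 4 genes changed sign without a call on either side, 18 values of 7 genes passed it and 16 values of 5 genes (Hmmr, Top2a, Ttc25, Tubd1 and Ube2c) no longer did. Genes in the text outside the 135, such as Ugdh, are not counted there. Of 522 list medians, 446 moved by less than the replicate spread and 70 by more with the sign kept. Another 6 changed sign by more than that spread: metallothionein from -0.21 to 0.0017 (mean of at least 5 TPM), mitosis to -0.13 (quantile normalization) and -0.0058 (without Cardamonin replicate 1, in a range up to 0.17 over the libraries left out), replication to -0.0334 (quantile normalization), and tubulins to 0.00062 (at least 1 TPM in all 6 libraries) and 0.0198 (no filter). Within the spread, 4 more medians changed sign: AP-1 to -0.023 (without Cardamonin replicate 3) and mitochondrially encoded genes to 0.030 (rescaling without the 20 most abundant genes), 0.016 (without Podofilox replicate 2) and 0.0073 (without Cardamonin replicate 2). The cause of these was not tested. Depth is unknown, so for genes near 1 TPM a missed call does not show that the compounds act alike.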
